A study of Mus musculus with 14 samples.

Results

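The response to the oncogene N-Myc was measured in cultured mouse bone-marrow progenitors that carried 1 mutant and 1 wild-type copy of Polg (Polgwt/mut, called Het here). The members are the 5 arrays the labels assign to this genotype, out of 14 in the series: 3 of cells given an empty vector (Het-Ctrl) and 2 of cells given N-Myc (Het-NMyc). The series holds the same pair of vectors in progenitors of wild-type mice (WT; 3 control and 2 N-Myc arrays) and of homozygous Polg mutant mice (Hom; 2 and 2). Lineage-negative marrow cells, which the labels call HPCs, were separated by autoMACS, kept in culture, and seeded on retronectin-coated plates with retrovirus from GP+E86 packaging cells. The control virus was MSCV-IRES-YFP and the other MSCV-NMyc-IRES-YFP, so every culture was transduced and received YFP from the vector. By their names the viruses differ in the N-Myc insert. Whether the cultures of a genotype were otherwise handled alike is not stated. Total RNA was hybridised to single-colour Affymetrix arrays. The labels give no age, sex or strain, do not say whether YFP-positive cells were selected or how long N-Myc was expressed, and call the arrays biological replicates without saying whether each came from its own mouse. The p-values therefore measure the spread between arrays, which the fit pooled over all 14 arrays of the series.

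N-Myc is a transcription factor of the MYC family. MYC proteins pair with MAX, bind DNA at E-box sequences, and are known for raising genes of ribosome assembly, nucleotide synthesis and mitochondrial metabolism. MXD proteins compete with them for MAX. Polg encodes the enzyme subunit that copies the mitochondrial genome, and the mitochondria use nuclear-encoded proteins for nearly all their other functions, so the mitochondrial gene lists below are nuclear genes. In blood formation, MYC activity is known to accompany proliferation and to fall as myeloid cells and platelets mature.

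The deposited values are on a log2 scale, where 1 unit is a 2-fold difference. All 14 arrays were fitted together with limma and the Het-NMyc mean was set against the Het-Ctrl mean for 22206 probe sets that were not array controls. A probe set was called changed at a Benjamini-Hochberg adjusted p below 0.05. The pair of Het-NMyc arrays correlated at r = 0.993 over these probe sets and the Het-Ctrl arrays at 0.989 to 0.991 with each other, against 0.967 to 0.973 across the vectors. The gap between the median of positive and of negative control probe sets was 3.79 to 4.10 log2 in Het-Ctrl and 4.27 and 4.48 in Het-NMyc, and the part of this gap in the results was not tested. Kit and Cd34, surface proteins of blood progenitors, were above the negative-control median in all 5 arrays. So were Ptprc (CD45), Spi1 and Vav1, which blood cells share, while Flt3 passed it in 2 of 3 Het-Ctrl and 1 of 2 Het-NMyc arrays. Ly6a had no probe set with that symbol. The bar is low, since 73.5% to 80.4% of all tested probe sets passed it in a Het array. Passing it does not identify a cell type. Genes of mature cells were bright too: 7 of 20 neutrophil genes had a mean level over the 14 arrays above the 99th percentile of all probe sets.

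N-Myc changed 4232 probe sets in Het progenitors, 19.1% of those tested. Rises numbered 2456 (11.1%) and falls 1776 (8%). The falls reached further: 94 probe sets fell at least 4-fold and 16 at least 8-fold, whereas 19 rose at least 4-fold and 1, Mycn, at least 8-fold. At 2-fold the sides were closer, with 709 rises and 627 falls. The median change over all probe sets was -0.01 log2. The values of the Het-NMyc and Het-Ctrl arrays did not overlap for 4227 of the called probe sets, and for 9962 of all 22206. Each group rests on few arrays: leaving out Het-NMyc replicate 1 left 2504 calls (1487 rises and 1017 falls), and leaving out Het-NMyc replicate 2 left 2490 (1445 and 1045). The codes in the labels put Het-Ctrl replicate 2 with Het-NMyc replicate 1 in 1 run of consecutive sample codes, and Het-Ctrl replicate 3 with Het-NMyc replicate 2 in another. Het-Ctrl replicate 1 stands in a further run, which holds no N-Myc array. Nothing in the labels names these runs as batches. Of 299 called genes chosen for naming, 55 lost their call in at least 1 of 14 alternative analyses. The alternatives include leaving out an array, changing the scaling, and changing the filter or the model. Genes among these 299 that lost their call in 3 or more are marked where they are named. Other genes were not followed through the alternatives.

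Mycn was the largest rise. Its values were 7.53, 7.50 and 7.65 in the Het-Ctrl arrays and 12.27 and 12.15 in the Het-NMyc arrays, a difference of 4.65 log2 (SE 0.38, 25.1-fold, limma adjusted p = 1.7e-06). The groups were more than 4 log2 apart. This SE pools the spread of all 14 arrays, and in a fit of the 5 Het arrays alone it was 0.15. The probe set can read RNA of the vector, and the labels do not name the species of the N-Myc insert. Its relative Myc, which encodes c-Myc, fell in the same cells: 11.43, 11.31 and 11.50 in Het-Ctrl and 9.87 and 10.03 in Het-NMyc (2.76-fold lower, SE of the log2 difference 0.16, limma adjusted p = 1.8e-05). Max, the shared partner, was 9.33, 9.36 and 9.50 in Het-Ctrl and 10.12 and 10.09 in Het-NMyc, and rose by 0.71. Of the 15 measured genes of the MYC network, 2 rose (13.3%, near the 11.1% of all probe sets) and 4 fell (26.7%, against 8%). Besides Myc, the falls were the MAX-binding antagonists Mxd1 (difference -1.15), Mxd4 (-0.81) and Mxi1 (-0.46). The call for Mxi1 was lost in 9 of 14 alternative analyses. Polg itself read 7.25, 7.23 and 7.42 in Het-Ctrl and 7.62 and 7.43 in Het-NMyc, a difference of 0.23 that did not pass the test (SE 0.19, limma adjusted p = 0.49).

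The other 14 of the 15 largest rises included genes of nucleotide, RNA and polyamine metabolism. Dctd, the deaminase that supplies deoxyuridylate for thymidylate synthesis, went from 8.29, 8.19 and 8.70 to 10.66 and 10.70 (4.86-fold). Cad, which carries the opening steps of pyrimidine synthesis, went from 6.87, 6.97 and 6.36 to 8.87 and 8.80 (4.29-fold). Every Het-NMyc value of both genes was above every Het-Ctrl value, which was a condition of the choice. Dkc1, the pseudouridine synthase of small nucleolar and telomerase RNPs, rose from 6.07, 6.31 and 6.39 to 8.50 and 8.56. Thg1l, which modifies histidine tRNA, rose from 6.20, 5.80 and 6.20 to 8.23 and 8.43. The nucleolar protein gene Nolc1 rose from 6.83, 7.29 and 7.62 to 9.40 and 9.31. Srm, spermidine synthase, rose from 9.71, 9.94 and 10.11 to 12.09 and 12.13, the pair of N-Myc arrays lying within 0.04 log2. The heat-shock protein gene Hsph1 read 7.32, 7.99 and 7.15 in Het-Ctrl and 9.85 and 10.01 in Het-NMyc. Rnase12, of the ribonuclease A family, was the second largest rise by size (2.60, SE 0.33) and had the widest Het-Ctrl values of the set, 5.48, 6.23 and 4.85, against 8.32 and 7.91. Mecr, an enzyme of mitochondrial fatty acid synthesis, rose by 2.15, Nlgn2, a neuroligin, by 2.14, the sphingomyelinase gene Smpd4 by 2.08 and Fam174b by 2.08. Kbtbd8 and the transcription factor Nfib were not above the negative-control median in any Het-Ctrl array, so their rises are bounds of at least 4.51-fold and at least 3.52-fold.

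**Figure D1:**
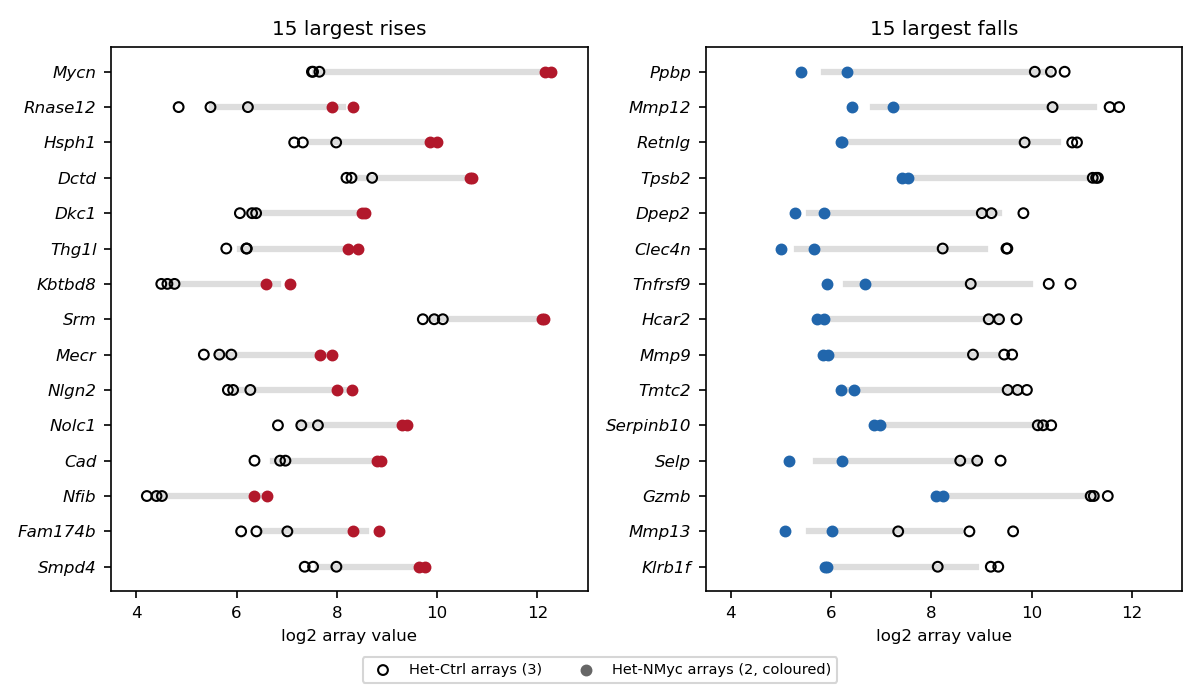
Log2 array values of the 15 largest rises (left) and 15 largest falls (right); each open circle is a Het-Ctrl array (3), each filled circle a Het-NMyc array (2), and the grey bar joins the group means. No gene shown has overlapping groups, which was a condition of the choice; Mycn goes from about 7.5 to above 12 and Ppbp from above 10 to 5.40 and 6.31.

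The E-box letters CACGTG, to which MYC-MAX pairs are known to bind, were searched in the 250 bases before each RefSeq transcript start (GRCm38.p6; the word is its own reverse complement, so a search of 1 strand covers both). They stood in 6.02% of all 32851 windows, in 10.7% of the 2291 windows of genes called as rises, in 6.85% of the 1737 windows of genes called as falls and in 6.31% of those of genes not called. Among rises of at least 2-fold the share was 12.2%, and among falls of at least 2-fold 6.21%. The shares did not follow the lists' counts throughout: the ribosomal RNA list, of which 57 of 60 genes rose, held the letters in 6.06% of 66 windows, and the lysosome and phagosome list, with 5 rises of 36, in 22.6% of 31 windows. Windows of 1 gene can overlap, and no test was made of these shares. Srm and Nfib had no window; of the other 13 largest rises, Hsph1 held the letters. The stretches below show Hsph1 with 4 genes of the growth and mitochondrial lists that rose at least 2-fold and hold the letters, taken in order of their rise after the search was seen, and then the 2 largest falls, which do not hold them. Each is 80 bases, 5′ to 3′ along the transcript's strand, with CACGTG in capitals.
Hsph1, chr5:149636316-149636395, minus strand, ending at the base before the start: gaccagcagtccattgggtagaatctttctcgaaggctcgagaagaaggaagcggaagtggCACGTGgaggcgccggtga
Slc16a1, chr3:104638427-104638506, plus strand: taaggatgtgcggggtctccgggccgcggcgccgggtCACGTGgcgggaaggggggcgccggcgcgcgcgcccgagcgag
Phb, chr11:95666707-95666786, plus strand: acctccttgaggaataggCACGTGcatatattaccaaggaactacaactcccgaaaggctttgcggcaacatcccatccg
Nme1, chr11:93968273-93968352, minus strand, ending at the base before the start: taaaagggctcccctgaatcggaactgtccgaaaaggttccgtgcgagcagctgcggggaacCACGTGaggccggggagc
Hspd1, chr1:55088281-55088360, minus strand: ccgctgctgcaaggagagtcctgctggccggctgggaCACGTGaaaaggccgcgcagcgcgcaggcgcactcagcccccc
Ppbp, chr5:90768438-90768517, plus strand, ending at the base before the start: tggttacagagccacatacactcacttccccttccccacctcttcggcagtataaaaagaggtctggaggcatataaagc
Mmp12, chr9:7344317-7344396, plus strand, ending at the base before the start: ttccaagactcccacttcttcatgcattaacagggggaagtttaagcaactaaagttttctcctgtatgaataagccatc
In Hsph1 the letters lie 19 to 14 bases before the start, in Nme1 18 to 13, in Hspd1 80 to 75, in Slc16a1 200 to 195 and in Phb 232 to 227. Nme1 holds them in both of its windows and Hspd1 in 1 of 2. A match is a description of the letters and says nothing of binding in these cells.

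Genes that make ribosomal RNA rose almost as a block. Of 60 measured genes of ribosomal RNA transcription and processing, 57 rose and 0 fell, against 11.1% rises among all probe sets, with a median of 1.19 log2. Wdr12, part of the complex that matures the large subunit, was 7.68, 7.76 and 7.75 in Het-Ctrl and 9.42 and 9.59 in Het-NMyc (3.42-fold, SE 0.14). The helicase gene Ddx18 was 9.20, 9.28 and 9.30 in Het-Ctrl and 10.97 in both Het-NMyc arrays (3.27-fold). In both genes the arrays of a group lay within 0.2 log2. Nop16, Noc2l and Rcl1, which act in the nucleolus, rose by 1.59, 1.36 and 1.62. Few genes for the proteins of the finished ribosome passed the test: of 31 measured cytosolic ribosomal protein genes 1 rose and 0 fell, with a median of 0.05 and changes from -0.20 to 0.89. That rise was Rps27l (0.89), a ribosomal-protein-like gene known as a p53 target, and its call was lost in 6 of 14 alternative analyses. Of these 31 genes, 23 had a mean level above the 99th percentile of all probe sets, 11.9 log2, on arrays whose highest value was 13.5; the part of this high level in the result was not tested.

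Most translation factors and aminoacyl-tRNA synthetases on the lists rose. Among 30 initiation and elongation factors 18 rose and 0 fell (median 0.69). Genes of 3 subunits of the exchange factor eIF2B were among them: Eif2b3 rose by 1.71, Eif2b1 by 1.36 and Eif2b4 by 1.03. Eef1e1, a scaffold protein of the tRNA synthetase complex, was 10.06, 10.07 and 10.19 in Het-Ctrl and 11.34 and 11.35 in Het-NMyc. Eif3b rose by 1.26 and the release factor Gspt1 by 1.17. Of 18 cytosolic aminoacyl-tRNA synthetases, which charge tRNAs, 11 rose and 0 fell (median 0.62). Farsb (1.14), Farsa (0.95), Hars (0.81), Kars (0.80), Tars (0.78) and Qars (0.64) had the smallest p-values. This count was 7 without Het-Ctrl replicate 2 and 5 without either Het-NMyc array.

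Nuclear pore and transport genes followed with 28 rises and 0 falls of 35 (median 0.83). Rcc1, the exchange factor of the GTPase Ran, was 7.55, 7.96 and 8.11 in Het-Ctrl and 9.37 and 9.50 in Het-NMyc. The importin genes Ipo11, Ipo4 and Ipo5 rose by 1.49, 1.36 and 1.12, Nup85 of the pore by 1.47 and Ranbp1 by 1.21. Of 28 cytosolic chaperone genes 20 rose and 1 fell (median 0.70). Besides Hsph1, Ruvbl1 rose by 1.81, the chaperonin subunit Cct3 by 1.45, and the HSP90 co-chaperones Stip1, Fkbp4 and Ahsa1 by 1.21, 1.15 and 1.11. The fall was Hspa4l (-0.68), lost in 5 of 14 alternatives. Of 37 proteasome genes 28 rose and 1 fell (median 0.69), and 18 rose without Het-NMyc replicate 2. The base and lid subunit genes Psmc4, Psmd6, Psmd12 and Psmd3 rose by 1.26, 1.18, 1.04 and 1.00, and Psmc1 and Psma4 by 0.79 and 0.76. The fall was Psmb9, an interferon-inducible subunit of the immunoproteasome: 8.83, 8.21 and 8.44 in Het-Ctrl and 7.42 and 7.66 in Het-NMyc. The call for Psmb9 was lost in 1 alternative.

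**Figure D2:**
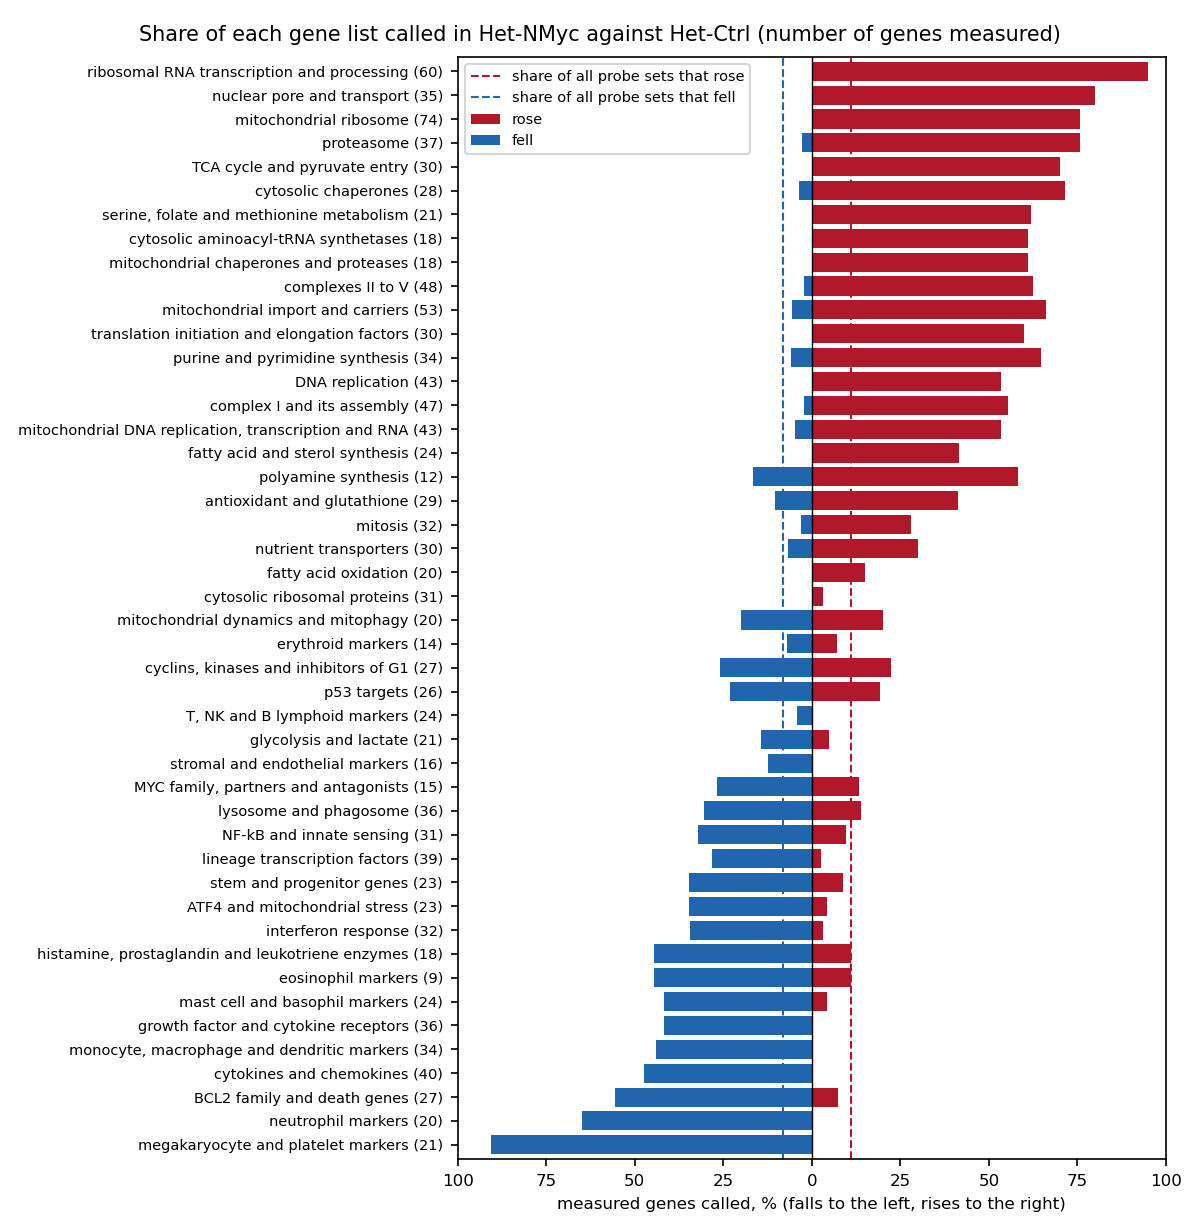
Percent of the measured genes of each of 46 lists that rose (red, right) or fell (blue, left) in Het-NMyc against Het-Ctrl, with the number measured in parentheses; the dashed lines are the shares of all 22206 probe sets that rose (11.1%) and fell (8%). Ribosomal RNA genes stand at one end with 57 of 60 rising and megakaryocyte and platelet genes at the other with 19 of 21 falling.

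Genes that supply nucleotides and 1-carbon units rose. Of 34 purine and pyrimidine genes 22 rose and 2 fell (median 0.73). In the purine pathway, Gart averaged 9.11 (SD 0.12, n = 3) in Het-Ctrl and was 10.89 and 10.93 in Het-NMyc, and Adsl was 8.64, 8.72 and 8.78 against 10.30 and 10.32. Both groups were tight and over 1.5 log2 apart. Besides Cad and Dctd, the CTP synthase gene Ctps rose by 1.37 and the nucleoside diphosphate kinase gene Nme1 by 1.67. The falls were Samhd1, which breaks down deoxynucleotides (-0.82, lost in 1 alternative), and Adssl1, an adenylosuccinate synthase (-1.02). Of 21 genes of serine, folate and methionine metabolism 13 rose and 0 fell (median 0.61). The folate enzymes Shmt1, Mthfd1 and Mthfd1l rose by 1.69, 1.62 and 1.10, the serine synthesis gene Phgdh by 1.27, Gcsh of the glycine cleavage system by 1.49 and the methionine salvage gene Mtap by 1.82.

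Polyamine genes split by role. Of 12 measured, 7 rose (58.3%, against 11.1% of all probe sets) and 2 fell (16.7%, against 8%). Without Het-NMyc replicate 2 the rises numbered 4. The rises included the synthesis genes Srm, Odc1 and Sms, of which Odc1, ornithine decarboxylase, went from 9.28, 9.53 and 9.21 to 10.38 and 10.50 (2.15-fold) and Sms from 7.88, 7.65 and 7.29 to 9.04 and 8.83. Adi1, of the methionine salvage that recycles their by-product, rose by 1.20. Both falls were genes of polyamine breakdown. Sat1, the acetyltransferase, went from 10.55, 10.32 and 10.43 to 8.71 and 8.67 (3.34-fold lower), and Smox, spermine oxidase, from 8.24, 8.72 and 8.19 to 7.45 and 7.57. Of 30 nutrient transporters 9 rose and 2 fell (6.67%, against 8% of all probe sets; median 0.20), and 5 rose without Het-NMyc replicate 1. The monocarboxylate carrier Slc16a1 rose by 1.90, the folate carrier Slc19a1 by 1.82, the transferrin receptor Tfrc by 1.75, and the amino acid carriers Slc7a6 and Slc38a1 by 1.05 and 0.90. The glucose carrier Slc2a3 fell from 10.85, 11.12 and 10.27 to 9.20 and 9.03. Slc38a9, the lysosomal arginine sensor, differed by -0.62 with its call lost in 2 alternatives.

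Most glycolysis genes did not pass the test. Of 21 measured genes of glycolysis and lactate 1 rose and 3 fell, and the median was 0.09. The rise was the hexokinase Hk2 (9.16, 9.31 and 8.79 against 9.85 and 9.67). Another hexokinase, Hk3, fell from 10.18, 10.35 and 10.25 to 9.03 and 9.14, and the aldolase Aldoc from 10.10, 10.19 and 9.38 to 8.21 and 8.22. Pfkfb4 differed by -0.53, with its call lost in 5 alternatives. The rise count was 5 without Het-Ctrl replicate 2 and 0 without Het-NMyc replicate 1.

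Nuclear genes for mitochondrial energy metabolism rose widely in these cells with 1 mutant Polg allele. Of 30 genes of the TCA cycle and pyruvate entry 21 rose and 0 fell (median 0.60), and 13 rose without Het-NMyc replicate 2. Got2, the mitochondrial aspartate aminotransferase, was 10.70, 10.55 and 10.74 in Het-Ctrl and 11.95 and 12.16 in Het-NMyc. Idh3a, a subunit of isocitrate dehydrogenase, went from 8.84, 8.60 and 9.14 to 10.30 and 10.35. The groups of both genes stood more than 1.1 log2 apart. Dlat of the pyruvate dehydrogenase complex rose by 1.08, fumarase (Fh1) by 0.87, Idh3b by 0.86 and Mdh2 by 0.79. Of 47 genes of complex I and its assembly 26 rose and 1 fell (median 0.62), and 16 rose without either Het-NMyc array. The assembly factor Ecsit rose by 1.43, and the subunit genes Ndufab1, Ndufb6, Ndufa5, Ndufa9 and Ndufc1 by 1.15, 1.03, 0.91, 0.89 and 0.81. Ndufa6 differed by -0.62 and lost its call in 5 alternatives. Of 48 genes of complexes II to V 30 rose and 1 fell (median 0.56), and 17 rose without either Het-NMyc array. The ATP synthase genes Atp5g1 and Atp5g3 rose by 1.35 and 1.21; they encode the same mature protein and are near copies there. Uqcrc1 and Cyc1 of complex III rose by 1.11 and 1.30, Cox10, which makes haem for complex IV, by 0.87 and cytochrome c (Cycs) by 0.82. Cox7a2l, a supercomplex assembly factor, went the other way: 10.57, 10.40 and 10.43 in Het-Ctrl and 9.60 and 9.46 in Het-NMyc.

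The machinery that builds mitochondria rose with it. Of 74 mitochondrial ribosome genes 56 rose and 0 fell (median 0.75), and 37 rose without Het-NMyc replicate 1. Mrpl12 was 8.47, 8.63 and 8.74 in Het-Ctrl and 10.16 and 10.04 in Het-NMyc, and Mrpl47 was 6.02, 5.91 and 6.14 against 7.60 and 7.61. The others with the smallest p-values, Mrpl11, Mrps27, Mrpl34 and Mrps5, rose by 1.50, 1.44, 1.28 and 1.28. Of 43 genes that copy mitochondrial DNA or make and translate its RNA 23 rose and 2 fell (median 0.66). The topoisomerase Top1mt was 5.76, 5.65 and 6.02 in Het-Ctrl and 7.12 and 7.65 in Het-NMyc. Elac2, which cuts tRNAs out of the mitochondrial transcript, rose by 1.63, the RNA nuclease Pnpt1 by 1.40, Fastkd3 by 1.30, and the translation factors Tufm and Gfm1 by 1.32 and 1.29. The 2 falls (4.65%, below the 8% of all probe sets) were the mitochondrial nucleoside kinases Tk2 (-0.73) and Dguok (-0.65). These salvage deoxynucleosides for mitochondrial DNA, and their calls were lost in 1 and 4 of 14 alternatives. Of 18 mitochondrial chaperone and protease genes 11 rose and 0 fell (median 0.70). Hspd1, the matrix chaperonin, was 10.31, 10.24 and 10.32 in Het-Ctrl and 11.96 and 11.95 in Het-NMyc (3.16-fold). Phb and Phb2, the prohibitins, rose by 1.67 and 1.02, the protease Clpp by 1.26, Hspe1 by 0.92 and Trap1 by 0.74.

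Import and carrier genes showed 35 rises and 3 falls of 53 (median 0.59), with 22 rises without Het-NMyc replicate 1. The translocase genes Tomm40, Timm8a1, Timm17a and Tomm5 rose by 1.55, 1.43, 1.43 and 1.13 and the aspartate-glutamate carrier Slc25a13 by 1.30. The 3 falls were 5.66% of the list, below the 8% of all probe sets. They were the ATP-magnesium carrier Slc25a24 (10.06, 9.72 and 9.66 against 8.52 and 8.57), Slc25a36 for pyrimidine nucleotides (-0.64) and Slc25a28 for iron (-0.55). In the list for mitochondrial dynamics and mitophagy, 4 of 20 rose and 4 fell (20% each, against 11.1% and 8% of all probe sets). The median was 0.00, and 2 rose without Het-NMyc replicate 1. The mitophagy-related genes Map1lc3a and Sqstm1 changed by -1.38 and -1.04 on the log2 scale and Bnip3l went from 10.44, 10.49 and 10.18 to 9.34 and 9.41, while Ppargc1b and Pprc1, coactivators of mitochondrial genes, and the fusion gene Opa1 rose by 1.20, 1.15 and 0.79. In lipid metabolism, 10 of 24 fatty acid and sterol synthesis genes rose and 0 fell (median 0.43), with fewer rises without Het-NMyc replicate 2. Among 20 fatty acid oxidation genes 3 rose (15%, near the 11.1% of all probe sets) and 0 fell (median 0.17). The oxidation rises numbered 1 without Het-Ctrl replicate 2 and 5 after median centring, and were fewer without either Het-NMyc array. Fasn, fatty acid synthase, was 9.22, 9.37 and 9.17 in Het-Ctrl and 11.26 and 11.25 in Het-NMyc (4.00-fold). Elovl6 rose by 1.86, the desaturases Fads2 and Fads1 by 1.05 and 1.00, Acaca by 0.84 and Elovl1 by 0.71. The 3 oxidation genes were Hadh (0.92), Acsl5 (0.64) and Acads (0.50), with calls lost in 1, 3 and 8 alternatives.

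**Figure D3:**
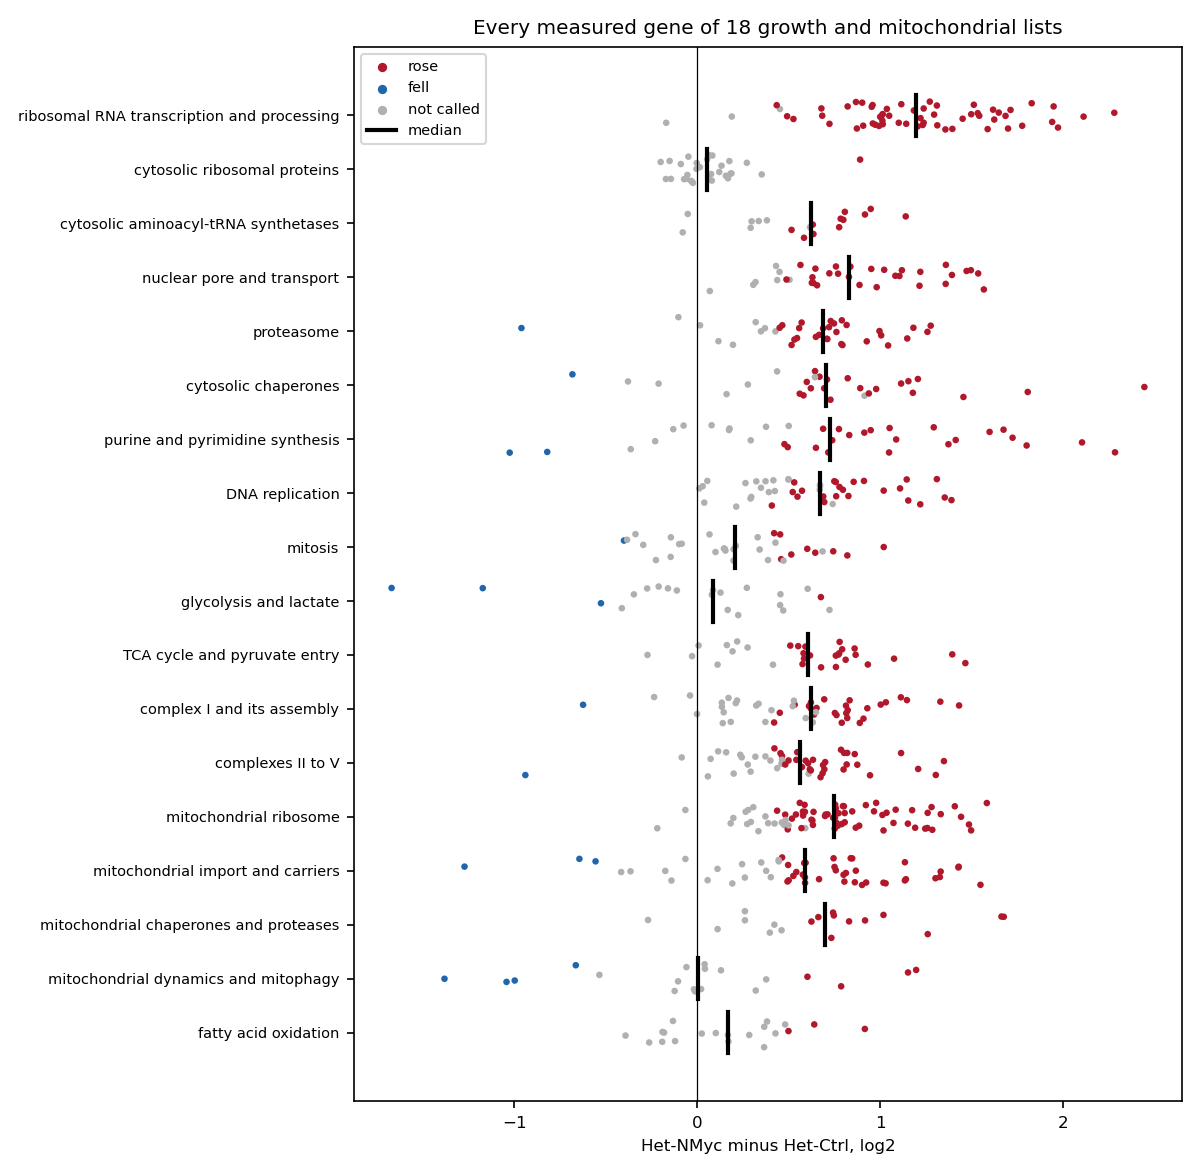
Difference between the Het-NMyc and Het-Ctrl means (log2) for every measured gene of 18 growth and mitochondrial lists; each point is a gene, red where it rose, blue where it fell and grey where it did not pass the test, and the black tick is the list's median. The ribosomal RNA list centres on 1.19 and the mitochondrial ribosome on 0.75, while cytosolic ribosomal proteins (0.05), glycolysis (0.09) and mitochondrial dynamics (0.00) centre near 0.

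The list for the ATF4 and mitochondrial stress response also holds genes of endoplasmic reticulum stress. Cells with faulty mitochondria are known to raise that response. Falls outnumbered rises on the list: 8 of 23 fell and 1 rose (median -0.40). The falls numbered 5 without Het-Ctrl replicate 1 and 5 after median centring of the arrays, and were fewer without either Het-NMyc array. Ddit3 (CHOP), a transcription factor of that response, went from 10.22, 9.84 and 10.22 to 7.79 and 7.74 (5.02-fold lower). Vldlr, a lipoprotein receptor on the list, went from 7.86, 7.89 and 7.90 to 6.33 and 6.32. Both genes had Het-NMyc values more than 1.5 log2 below the lowest Het-Ctrl value. Nupr1 changed by -1.70 and Atf3 by -1.03 on the log2 scale. Ppp1r15a (-0.68) and Edem1 (-0.45) lost their calls in 3 and 7 alternatives. The rise was Hspa5, the endoplasmic reticulum chaperone BiP (0.57), lost in 8. Edem1 and Sel1l (-0.48), both among the falls, are endoplasmic reticulum genes as well. Sel1l was not followed through the alternatives. Atf4 itself (0.05), Asns (0.18), Atf5 (-0.04), Chac1 (-0.37), Sesn2 (-0.30) and Fgf21 (-0.19) did not pass the test. Of 29 antioxidant and glutathione genes 12 rose (41.4%, against 11.1% of all probe sets) and 3 fell (10.3%, near the 8% of all). The median was 0.42, and 6 rose without either Het-NMyc array. Mitochondrial Txn2 and Sod2 rose by 1.15 and 1.00, Prdx1 by 0.97 and Txnrd1 by 0.84. The glutathione transferase genes Mgst2 and Mgst1 changed by -1.14 and -1.07 on the log2 scale, and Gpx4 differed by -0.45 with its call lost in 8 alternatives.

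DNA replication genes and some mitotic genes rose. Of 43 DNA replication genes 23 rose and 0 fell (median 0.67), with 13 rises without Het-NMyc replicate 2. Fen1, the flap nuclease, was 8.21, 8.27 and 8.30 in Het-Ctrl and 9.62 and 9.68 in Het-NMyc. Gins1, Mcm2, Orc1, Pola2 and Pole2, of the helicase, origin and polymerase complexes, rose by 1.35, 1.31, 1.22, 1.15 and 1.11. Of 32 mitosis genes 9 rose (28.1%, against 11.1% of all probe sets) and 1 fell (3.1%, against 8%), with a median of 0.20. The rises numbered 5, 3, 2 and 2 without Het-Ctrl replicate 2, Het-Ctrl replicate 3, Het-NMyc replicate 1 and Het-NMyc replicate 2. Kif20a and Aurka rose by 1.02 and 0.82, whereas Cdc20 (0.74), Bub1 (0.64), Cdk1 (0.51), Aurkb (0.46) and the fall, Cenpf (-0.40), lost their calls in 2, 3, 5, 7 and 10 alternatives. The difference between the replication and mitosis lists was not tested.

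Regulators of the G1 phase moved in both directions, with 6 rises and 7 falls of 27 (22.2% and 25.9%). Among all probe sets 11.1% rose and 8% fell. Among inhibitors of cyclin-dependent kinases, Cdkn1b (p27) fell from 10.09, 9.99 and 9.76 to 8.53 and 8.45, Cdkn2d from 9.64, 9.43 and 9.48 to 8.07 and 8.04, and Cdkn2a from 8.25, 8.17 and 7.99 to 6.99 and 6.03. Skp2, which targets p27 for destruction, went from 8.28, 8.07 and 8.51 to 9.44 and 9.63. Cdkn2b and Cdkn2c also fell, with changes of -1.23 and -0.65, and were not followed through the alternatives. Cdkn1a (p21, -0.47) and Cdkn1c (p57, -0.05) did not pass the test. In Cdkn1b, Cdkn2d, Cdkn2a and Skp2 the groups stood at least 0.9 log2 apart. Cdk4 rose by 1.16, E2f4 by 1.25, Ccne1 by 1.10, Cks1b by 0.70 and E2f3 by 0.58, with the call for E2f3 lost in 5 alternatives. Among 26 p53 targets 5 rose (19.2%, against 11.1% of all probe sets) and 6 fell (23.1%, against 8%), with a median of -0.09. Btg2, an antiproliferative gene, fell from 9.82, 9.39 and 9.12 to 7.36 and 7.22, and Trp53inp1, Gadd45a and Rprm changed by -1.78, -1.11 and -1.05 on the log2 scale. Phlda3 (1.31) and Aen (0.80) rose, as did Zmat3 (0.99), Tnfrsf10b (0.55) and Tigar (0.47), whose calls were lost in 2, 4 and 6 alternatives. The rises in this list numbered 2 without Het-Ctrl replicate 3 or Het-NMyc replicate 1 and 3 without Het-NMyc replicate 2.

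Death regulators mostly fell: of 27 genes of the BCL2 family and related death genes 15 fell and 2 rose (median -0.50), against 8% falls among all probe sets, and 9 and 7 fell without Het-NMyc replicates 1 and 2. The survival gene Bcl2 went from 10.06, 10.42 and 9.76 to 8.65 and 7.90 (3.50-fold lower). The 3 measured copies of the survival gene A1 fell as well: Bcl2a1a from 8.35, 8.06 and 8.02 to 6.06 and 4.92, while Bcl2a1b changed by -2.35 and Bcl2a1d by -2.27. The copies are near-identical, and their probe sets may read each other's RNA, so they are not 3 separate results. Birc2, an inhibitor of apoptosis, changed by -1.23 and the inflammatory caspase gene Casp4 by -1.16 on the log2 scale. Death-promoting genes were among the falls too: Bcl2l11 (-0.76), Casp6 (-0.70), Pmaip1 (-0.65) and Bmf (-0.50), which were not followed through the alternatives. The falls were thus of both kinds. The rises were the death-promoting genes Bid, from 7.12, 6.97 and 7.18 to 7.90 and 8.25, and Bak1, from 9.58, 9.78 and 9.78 to 10.19 and 10.31. Their calls were lost in 1 and 4 alternatives.

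Genes of mature blood lineages held the largest falls. RNA was measured in bulk, and whether cells were selected before lysis is not given in the sources used here, so fewer cells of a type and less RNA per cell cannot be told apart. Among megakaryocyte and platelet genes 19 of 21 fell and 0 rose, the highest share of falls among the 46 lists, with a median of -1.33. Ppbp, a platelet chemokine precursor and the largest fall of the study's Het arrays, was 10.06, 10.39 and 10.66 in Het-Ctrl and 5.40 and 6.31 in Het-NMyc (22.8-fold lower, SE of the log2 difference 0.29, limma adjusted p = 3.3e-07). Pf4, platelet factor 4, was 10.25, 10.27 and 10.64 against 7.46 and 7.73. Selp, the platelet adhesion receptor P-selectin, was 8.92, 8.58 and 9.38 against 5.17 and 6.23. The groups of all 3 genes were more than 2 log2 apart. Clec1b changed by -1.78, the integrin gene Itgb3 by -1.48, Cd9 by -1.37 and Thbs1 by -1.28 on the log2 scale. Averaged over the list, the log2 level was 8.61 to 8.79 in the Het-Ctrl arrays and 7.16 and 7.25 in the Het-NMyc arrays.

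Of 20 neutrophil genes, all above the negative-control median in every Het array, 13 fell and 0 rose (median -0.65). Retnlg, a neutrophil-secreted resistin-like protein, went from 10.81, 10.91 and 9.86 to 6.23 and 6.20 (19.9-fold lower). The gelatinase Mmp9 went from 9.61, 9.45 and 8.83 to 5.95 and 5.85, and lactoferrin (Ltf) from 11.98, 11.89 and 11.98 to 9.42 and 9.49. Ltf varied by under 0.1 log2 within each group. Cd177 changed by -1.98, the collagenase Mmp8 by -1.59 and Padi4 by -1.29 on the log2 scale. The list's mean log2 level was 11.60 to 11.71 in Het-Ctrl and 10.53 and 10.66 in Het-NMyc. Of 34 monocyte, macrophage and dendritic genes 15 fell and 0 rose (median -0.60). The macrophage elastase Mmp12 went from 11.75, 11.56 and 10.42 to 7.25 and 6.42 (21.2-fold lower). Lysozyme (Lyz2) went from 12.83, 12.72 and 12.61 to 10.36 and 10.64; Lyz1 changed by -2.05 on the log2 scale, but is a near copy that may share its probes' targets. The chemokine receptor Ccr2 changed by -2.01 and F13a1 by -1.60 on the log2 scale. Itgax (CD11c) was not above the negative-control median in either Het-NMyc array, so its fall is a bound of at least 1.37-fold. This list averaged 7.57 to 7.95 log2 in Het-Ctrl and 6.97 and 6.83 in Het-NMyc.

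Granule genes of mast cells, basophils and eosinophils were among the falls. Of 24 mast cell and basophil genes 10 fell and 1 rose (median -0.49), and 6 fell without Het-NMyc replicate 2. The tryptase Tpsb2 went from 11.22, 11.29 and 11.32 to 7.42 and 7.55 (13.9-fold lower, SE of the log2 difference 0.14, limma adjusted p = 3.7e-10). Granzyme B (Gzmb) went from 11.24, 11.52 and 11.18 to 8.24 and 8.10, and the chymase Cma1 from 8.20, 8.69 and 8.38 to 6.65 and 6.72. The rise was Ms4a2, the beta chain of the IgE receptor: 9.09 (mean, SD 0.11, n = 3) in Het-Ctrl and 10.34 and 10.03 in Het-NMyc. Tph1, which makes serotonin, and its vesicle carrier Slc18a2 changed by -1.30 and -0.98 on the log2 scale. Of 9 eosinophil genes 4 fell and 1 rose, and Il5ra, Ear10 and Ccr3 were below the negative-control median in all 5 arrays. The granule proteins Prg2 and Epx went from 11.16, 11.02 and 11.12 to 8.75 and 9.15 and from 9.96, 9.72 and 9.81 to 7.78 and 7.88. Prg3 and Siglecf changed by -1.57 and -1.25 on the log2 scale, and the lipoxygenase Alox15 rose from 5.94, 6.11 and 6.33 to 8.11 and 7.90. The other large falls were spread over proteases, receptors and surface proteins: Dpep2 (-3.78), Clec4n (-3.75), Tnfrsf9 (-3.66), Hcar2 (-3.61), Tmtc2 (-3.39), Serpinb10 (-3.33), Mmp13 (-3.02) and Klrb1f (-2.99). Mmp13 lost its call in 2 alternatives.

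Lists for other cell types moved little, beside 11.1% rises and 8% falls among all probe sets. Of 14 erythroid genes 1 rose, Tfrc, and 1 fell, Car2 (-0.80, lost in 3 alternatives); 12 of the 14 were above the negative-control median in all 5 arrays and the list's mean log2 level was 6.69 to 6.82 in Het-Ctrl and 6.85 and 6.86 in Het-NMyc. Of 24 T, NK and B lymphoid genes 0 rose and 1 fell, Cd3d (-0.53, lost in 10 alternatives). Its 24 genes averaged 5.27 to 5.31 in Het-Ctrl and 5.18 and 5.32 in Het-NMyc, and Klrb1c, Ncr1 and Klrd1, NK cell receptors, were below the negative-control median in all 5. Of 16 stromal and endothelial genes 2 fell (12.5%, against 8% of all probe sets) and 0 rose. The falls were fibronectin (Fn1), from 8.51, 9.05 and 8.12 to 5.68 and 6.21, and Pecam1 (-0.67). Lum, Lepr and Dcn of that list were below the negative-control median in all 5 arrays. Fn1 and Pecam1 are also made by macrophages and platelets. The part of any cell type's share in the falls was not tested.

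Progenitor genes and lineage regulators changed less uniformly. Of 23 stem and progenitor genes 8 fell and 2 rose, one of them Mycn itself (median -0.11), and 5 fell without Het-NMyc replicate 2. Cd34 went from 9.46, 9.68 and 9.64 to 8.70 and 8.26 (2.16-fold lower). Kit, the receptor for stem cell factor, was 10.06, 9.74 and 9.96 in Het-Ctrl and 9.33 and 9.43 in Het-NMyc, a difference of -0.54 whose call (limma adjusted p = 0.040) was lost in 8 of 14 alternatives. Cd93 changed by -1.81, Txnip by -1.69, Slamf1 by -1.58 and Meis1 by -0.98 on the log2 scale. Cd48 differed by 0.70, with its call lost in 6 alternatives. Ptprc, the pan-leukocyte phosphatase CD45, went from 11.19, 11.03 and 10.81 to 9.22 and 9.55, whereas Spi1 (PU.1) was 12.86, 12.90 and 13.01 against 12.87 and 12.92 and Vav1 differed by 0.26 (adjusted p = 0.30 in limma). Gata2 (difference 0.05), Tal1 (-0.11), Lmo2 (0.45) and Flt3 (-0.20) did not pass the test either. Of 39 lineage transcription factors 11 fell and 1 rose (median -0.05), and 6 and 4 fell without Het-NMyc replicates 1 and 2. Klf2 went from 9.21, 8.17 and 7.69 to 6.50 and 6.66, Id2 changed by -1.63, Egr2 by -1.51, Cebpd by -1.07, Nfil3 by -0.88 and Bhlhe40 by -0.81 on the log2 scale. The rise was Tcf3 (0.48), lost in 5 alternatives. Of 36 growth factor and cytokine receptors 15 fell and 0 rose (median -0.56; 7 fell without Het-NMyc replicate 2), among them Il18r1 (-1.89), Ccr1 (-1.27), Il10ra (-1.21), Il3ra (-0.93) and Il4ra (-0.65).

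**Figure D4:**
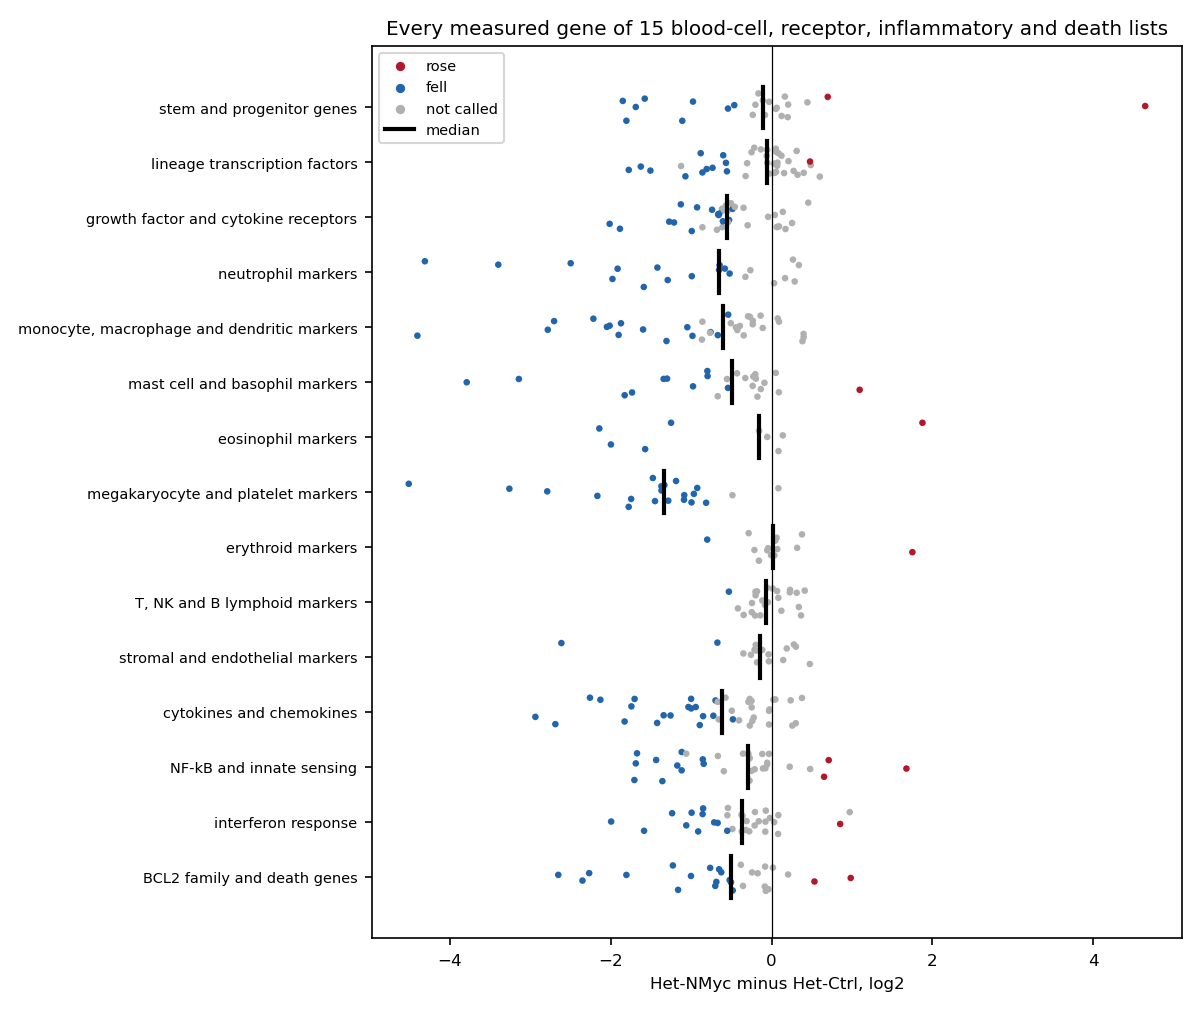
Difference between the Het-NMyc and Het-Ctrl means (log2) for every measured gene of 15 lists of blood-cell markers, receptors, inflammatory genes and death genes, with colours and ticks as in the plot of growth lists. Megakaryocyte and platelet genes centre on -1.33 with 19 of 21 in blue, while the erythroid (0.02) and lymphoid (-0.07) lists lie around 0.

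Among secreted and inflammatory genes falls outnumbered rises, and most members did not pass the test. Of 40 cytokines and chemokines 19 fell, 0 rose and 21 did not pass (median -0.61), and 12 fell without either Het-NMyc array. Interleukin-6 (Il6) went from 11.95, 12.28 and 11.86 to 9.92 and 9.62, and interleukin-1 beta (Il1b) from 8.34, 8.20 and 7.54 to 5.56 and 5.12. Its natural antagonist Il1rn went from 9.42, 9.82 and 8.96 to 6.35 and 6.57 (7.66-fold lower). All 3 genes had gaps of about 2 log2 between the groups. Ccl4, Ccl2 and Lif changed by -2.13, -1.74 and -1.70 on the log2 scale. In NF-kB and innate sensing 10 of 31 fell (32.3%, against 8% of all probe sets) and 18 did not pass (median -0.29). The 3 rises (9.68%) were near the 11.1% of all. The inhibitor gene Tnfaip3 changed by -1.67, Nfkbiz by -1.69, Traf1 by -1.44, and the endotoxin receptor Tlr4 by -1.12 on the log2 scale. The rises were the inflammasome sensors Nlrc4, which was not above the negative-control median in any Het-Ctrl array and rose at least 2.42-fold, and Aim2 (0.71), with Nfkbib (0.65). Of 32 interferon-response genes 11 fell, 1 rose and 20 did not pass (median -0.37), and 7 fell without Het-NMyc replicate 1. Irf7 went from 6.36, 7.09 and 6.42 to 4.77 and 4.49, Ddx58 (RIG-I) changed by -1.59, Stat2 by -1.06, Zbp1 by -0.91 and Irf1 by -0.86 on the log2 scale, and Bst2 rose by 0.85.

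Of 36 lysosomal genes 11 fell (30.6%, against 8% of all probe sets) and 5 rose (13.9%, near the 11.1% of all), with a median of -0.17. Without Het-NMyc replicate 1 there were 5 falls and 2 rises; the rises also numbered 2 without Het-NMyc replicate 2 or Het-Ctrl replicate 3, and 3 without Het-Ctrl replicate 1 or 2, and were 2 after quantile normalization. The cathepsin Ctss went from 10.07, 9.68 and 9.03 to 7.52 and 7.76, while Ctsh, Psap and Cybb, the oxidase of phagocytes, changed by -1.22, -1.21 and -1.19 on the log2 scale. Gusb, beta-glucuronidase, rose from 9.11, 9.15 and 9.06 to 10.39 and 10.57, and Gaa by 0.72. The other rises, Atp6v1h (0.46), Atp6v1c1 (0.69) and Ctsz (0.43), lost their calls in 7, 6 and 8 alternatives. Of 18 genes for histamine, prostaglandin and leukotriene handling 8 fell and 2 rose (median -0.42), and 4 fell without Het-NMyc replicate 2. Ptgs2 (cyclooxygenase 2) went from 7.35, 7.44 and 6.82 to 5.27 and 5.73, Pla2g7 was 3.99-fold lower, and Alox12 changed by -1.74 and Ltb4r1 by -1.31 on the log2 scale. Besides Alox15, the rise was the prostaglandin synthase gene Ptges2 (0.94).

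The response in Het cells was then set against those of the other Polg genotypes by testing the difference of the effects. Against WT, 0 of 22206 probe sets passed (0%), the smallest adjusted p in limma being 1.00; 730 had an unadjusted p below 0.05, and 0 passed in every alternative analysis run. The 730 are fewer than the share of 0.05 that would on average fall below that threshold with no true difference. The standard error of a difference of effects had a median of 0.25 log2. Differences well above that size did not pass either, as the probe sets named next show. A count of 0 is therefore no sign that the responses were equal. The probe sets of smallest p, which did not pass, were Cyp3a16 (0.90), Bend4 (1.08) and Slc6a14 (1.12) with higher and Slc28a1 (-1.23), Fcrlb (-0.82) and Akp3 (-0.90) with lower effects in Het. Cyp3a16 and Slc6a14 were below the negative-control median in all 5 Het arrays. For the ribosomal RNA list the median change was 1.19 in Het, 1.07 in WT and 1.10 in Hom; for the mitochondrial ribosome 0.75, 0.67 and 0.57; for megakaryocyte and platelet genes -1.33, -1.38 and -1.50. The medians of other lists lay further apart: those for fatty acid and sterol synthesis were 0.43, 0.74 and 0.04, and those for p53 targets -0.09, -0.23 and -0.57. Differences of whole lists between genotypes were not tested.

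Against Hom, 7 probe sets differed (0.0315%), 2 with a higher and 5 with a lower effect in Het. An unadjusted p below 0.05 was found for 1537, more than the share of 0.05 that no true difference would give on average. Of the 7, 5 had gene names outside the predicted and olfactory receptor classes, each with a limma adjusted p of 0.046. Vldlr differed by -1.23 log2 (SE 0.19): N-Myc lowered it by 1.56 in Het, and the Hom arrays read 6.86 and 6.96 in control and 6.53 and 6.64 with N-Myc. Crispld2, a secreted protein, differed by -1.21 (SE 0.19); it was 7.74, 7.77 and 7.81 in Het-Ctrl and 6.50 and 6.66 in Het-NMyc, against 6.83 and 6.79 in Hom-Ctrl and 6.77 and 6.88 in Hom-NMyc. Siglecf, a lectin of eosinophils and macrophages, differed by -1.59 (SE 0.25), with Hom values of 6.90 and 7.39 in control and 7.45 and 7.52 with N-Myc. In these 3 genes, and in Gpr141 described next, the Hom-Ctrl arrays lay below all Het-Ctrl arrays. Gpr141, an orphan receptor, differed by -1.44 (SE 0.23): it went from 9.83, 9.56 and 9.72 to a mean of 8.96 in the 2 Het-NMyc arrays, and from 8.92 and 8.79 to 9.55 in both Hom-NMyc arrays. Ptgds, a prostaglandin D synthase, differed by 1.79 (SE 0.29), but was below the negative-control median in all 5 Het arrays, so the Het side has no measured change; its Hom values were 6.13 and 5.85 in control and 3.89 and 3.69 with N-Myc. The array labelled Hom-Ctrl replicate 1 read 9.77 for Mycn, above the other control arrays of the series at 7.43 to 7.76, so directions drawn from it rest on its label. Without it the differences were -1.18, -1.23, -1.35, -1.50 and 1.66 in the order Vldlr, Crispld2, Siglecf, Gpr141 and Ptgds, with limma adjusted p from 0.079 to 0.12, and 3 probe sets were called in all. Without Hom-Ctrl replicate 2 the count was 3, and it was 0 without any 1 of the Het arrays or either Hom-NMyc array.

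**Figure D5:**
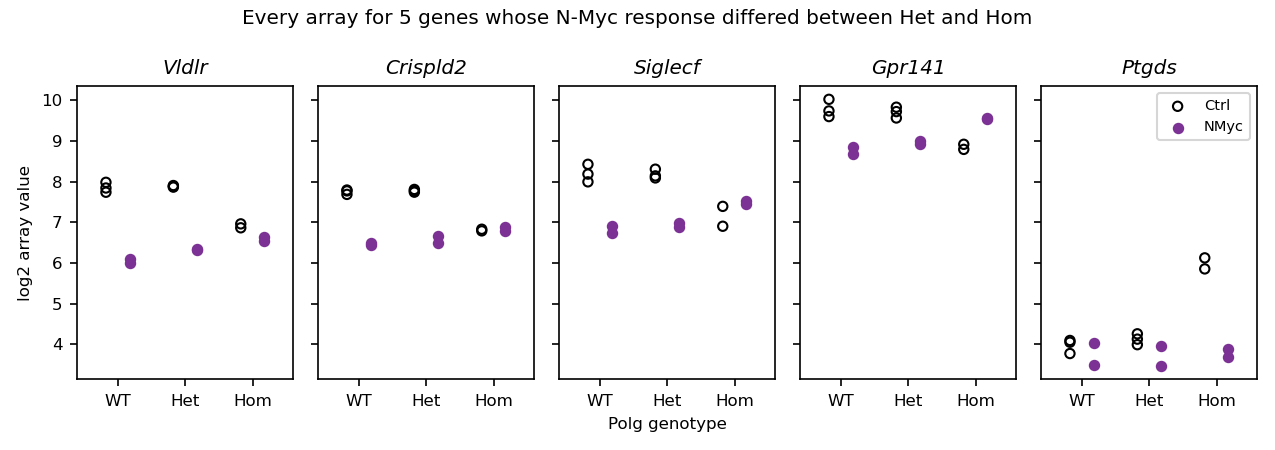
Log2 array values of 5 genes whose N-Myc response differed between Het and Hom, by Polg genotype; open circles are control arrays and filled circles N-Myc arrays, every array being shown. In Vldlr, Crispld2 and Siglecf the Hom control arrays sit near or below 7.4 and the WT and Het control arrays above 7.6; Ptgds is high only in the Hom control arrays, at 6.13 and 5.85.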

How the data were processed

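RNA of 14 cultures was measured on Affymetrix single-colour arrays. The deposited table holds log2 values, 1 per probe set and array; per the submitters' processing notes they came from Affymetrix Expression Console (version not given), and the normalization is not given in the sources used here. Gene names came from GEO's platform annotation: 19572 of the 22206 tested probe sets had 1 symbol and 2634 none. The 6640 control sets were left out.

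Group means of all 6 groups were fitted with limma 3.58.1 (R 4.3.3) and moderated by eBayes. Tested were Het-NMyc minus Het-Ctrl and the differences of that effect from WT and Hom, with Benjamini-Hochberg adjustment over all tested probe sets, and the script was tested on simulated data. A gene with several probe sets is given by the brightest. The median of the 5222 negative control sets of each array served as its background; where every array of a group lay below it, a fold is given as a bound, the other group's mean against the higher of background and the probe's own value. Array data give no read depth, and the number of arrays limits the precision.

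The members, the 46 gene lists (1547 entries, 1373 of them measured) and the tests were chosen with earlier results of these data known. Named are the 15 largest rises and falls among called, non-overlapping probe sets with 1 symbol (predicted genes, clones, olfactory and similar receptors, and small RNAs left out), up to 6 called genes of smallest p per list with those that moved against the list, Mycn, Myc, Max, Polg, Kit, Cd34, and the genes with differing effects. Promoter letters were searched in RefSeq windows of GRCm38.p6. Alternatives were normalization, centring, filters, blocks and leaving out each array.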

Additional observations from a re-analysis of the deposited data

Results flagged for a closer look

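The N-Myc response of 5 genes differed between Het and Hom progenitors by a test of the difference itself in limma. The difference was -1.59 log2 for Siglecf, -1.44 for Gpr141, -1.23 for Vldlr and -1.21 for Crispld2, the negative sign meaning a lower effect in Het, and 1.79 for Ptgds. In leave-out analyses of 1 array at a time the differences kept their sign: -1.84 to -1.35 for Siglecf, -1.51 to -1.38 for Gpr141, -1.28 to -1.17 for Vldlr, -1.29 to -1.13 for Crispld2 and 1.55 to 2.04 for Ptgds. Of 9 such analyses, Siglecf stayed past the threshold in 1 and the others in 0. Ptgds was below the negative-control median in all 5 Het arrays.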

How the results depend on the processing

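With 2 Het-NMyc arrays the count of calls depended most on them: leaving out 1 Het array at a time gave 2490 to 3800 called probe sets, 1445 to 2178 rises and 1017 to 1622 falls. The other settings gave 3638 to 4598 calls, against 4232, and 0 named genes reversed. Of 299 named genes that were called, 244 were called in all 14 alternatives and 26 were lost under an alternative other than leaving out an array. Mycn differed by 4.59 to 4.83 log2 across all alternatives. For the difference between Het and WT, all settings gave 0 calls. For Het against Hom, 7 were called, and 0 when AFFX controls alone were left out or code runs 2 and 3 alone were used, 20 with trended and robust variance, 3 with the code run as a block, and 0 to 3 when 1 array was left out; the cause was not tested. With the replicate number as a block (replicate block) 4579 probe sets were called in Het, 2646 rises and 1933 falls, and 4 for Het against Hom. Deviations of same-numbered Het arrays correlated at r = -0.04 (0.10 for arrays of the same code run), with 2 pairs only, so the numbers were not taken as pairing. Whether the deposited normalization shapes the counts could be probed only by renormalizing the deposited values.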
